A study of Homo sapiens with 6 samples.

Results

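The insulin granule exocytosis machinery was examined as 38 genes for SNAREs, docking and priming factors, calcium sensors and Rab proteins, listed by symbol and looked up among the 60671 gene identifiers of each sample. All 38 symbols matched an identifier, and 36 of them passed edgeR's filter on low counts, which 17649 genes passed in all. The list does not hold every gene of the process. Polyadenylated RNA had been sequenced from EndoC-βH1, a β cell line that was made from human fetal pancreas with SV40 large T antigen, so that every sample derives from one immortalized line. Of the 6 samples, 3 were treated with DMSO, the vehicle, and 3 with 1 µM AZD7762, which inhibits both checkpoint kinases CHEK1 and CHEK2. In the study's kinase assay, 1 µM of the compound also inhibited most of its other reported kinase targets. Both groups went through 1 h of starvation in 0.5 mM glucose and 1 h of stimulation, in 0.5 or 20 mM glucose without a statement of which applied to which library. In the study's insulin secretion assays of this line the compound was present in both steps. The study's RNA-seq methods give no exposure time. The labels do not say whether the replicates of a group were separate cultures, and the study's methods call in vitro replicates independent in general without a statement for these libraries. If they were not separate, p-values measure only the spread between these samples, which may be technical.

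Insulin is stored in dense-core granules that fuse with the plasma membrane when cytosolic calcium rises. Fusion is driven by the pairing of a SNARE on the granule with SNAREs on the plasma membrane, assisted by Munc18-type proteins, prepared by Munc13, CAPS and RIM proteins, and triggered through calcium sensors of the synaptotagmin family. Rab GTPases bring granules to the membrane and tether them there, and the ATPase NSF with its adaptor α-SNAP takes used SNARE complexes apart.

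Of the 36 genes tested, SYT4, a synaptotagmin of granules and vesicles whose first calcium-binding domain lacks a residue needed to hold calcium, rose with AZD7762, and no other gene of the machinery passed the threshold in either direction. The SYT4 level was 149.6, 144 and 143 CPM (counts relative to the TMM-scaled size of the library) in the 3 DMSO samples and 262, 304 and 276 CPM in the 3 AZD7762 samples. Every AZD7762 sample lay above every DMSO sample. The mean went from 145.5 ± 3.52 to 281 ± 21.5 CPM (SD, n = 3 each), a fitted 1.93-fold change with a 95% interval from 1.75 to 2.13. On the log2 scale the change was 0.95 ± 0.07 (SE), with an adjusted p of 5.50e-06 in edgeR (quasi-likelihood test, Benjamini-Hochberg adjustment over all genes tested). The share of all genes that passed this threshold was 0.708%. SYT4 lies on the minus strand at chr18:40847857-40857500 (GRCh37) and shares no exonic bases with another annotated gene on either strand.

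The promoters of SYT4 and of its closest relative SYT11, which is also on the list, are shown because the intervals of their changes with AZD7762 did not overlap. The sequences come from RefSeq on GRCh38.p14, read 5′ to 3′ on the strand of the gene, from 250 bases before to 50 bases after the annotated start. Capitals mark CGTCA, which is TGACG on the other strand, the short form of the cAMP response element that CREB-type factors bind.
SYT4: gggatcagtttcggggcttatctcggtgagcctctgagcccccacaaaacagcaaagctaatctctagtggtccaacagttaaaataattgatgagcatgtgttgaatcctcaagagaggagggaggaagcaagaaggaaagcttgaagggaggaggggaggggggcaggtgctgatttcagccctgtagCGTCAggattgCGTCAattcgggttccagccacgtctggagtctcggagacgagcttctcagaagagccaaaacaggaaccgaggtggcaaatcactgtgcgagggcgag
SYT11: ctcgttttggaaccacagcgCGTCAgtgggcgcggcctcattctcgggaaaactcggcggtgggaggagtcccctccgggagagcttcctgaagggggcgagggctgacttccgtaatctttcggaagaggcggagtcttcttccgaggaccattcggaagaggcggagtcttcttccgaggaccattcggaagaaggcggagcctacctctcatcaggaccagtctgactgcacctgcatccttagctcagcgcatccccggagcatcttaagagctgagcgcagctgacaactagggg
The SYT4 window is chr18:43277441-43277740 on the minus strand and holds 2 copies of the short form, which begin 60 and 49 bases before the start. The SYT11 window is chr1:155859317-155859616 on the plus strand and holds 1 copy, which begins 230 bases before the start. Neither holds the full element TGACGTCA, which contains the short form. Both motifs were searched on both strands, and no other motif was searched. The short form occurred in 24.6% of the 35116 promoter windows of this length, and at least 2 copies occurred in 6.02%. Among the machinery genes, 28 had an entry, with 48 windows between them, some genes with several. Of these windows 41.7% held the short form, and windows of 1 gene are not independent. By gene, 8 of the 28 had a window with at least 2 copies, SYT4 among them. This is a count of genes and cannot be set beside the 6.02% of windows. The full element occurred in 1.85% of all windows and in 1 of the 48. These matches are letters in a window and no measurement of binding. A part of CREB-type factors in the SYT4 change was not tested.

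Across the 36 genes, the median log2 fold change was 0.04, beside 0.01 over all genes tested. Disregarding sign, the median change was 0.07 on the log2 scale, beside 0.09 over all genes. The fitted change was above 0 for 24 genes and below 0 for 12, beside 52.4% above 0 over all genes. The 24 became 19 with upper-quartile scaling factors and 18 with library totals alone. In these 2 settings the median over all genes also moved, to -0.0096 and -0.028, and that of the 36 genes was 0.021 and 0.0034. An unadjusted p under 0.05 was found for 1 gene above 0 (SYT4) and 2 below (EXPH5 and RIMS2), beside 9.68% of all genes in either direction. The median 95% interval reached 0.14 to each side of the estimate on the log2 scale. For 31 of the 36 genes the whole interval lay within 0.5 of no change. The exceptions were SYT4, STXBP2, RAB3A, DOC2B and EXPH5, of which only SYT4 had an interval that passed 1.

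**Figure D1:**
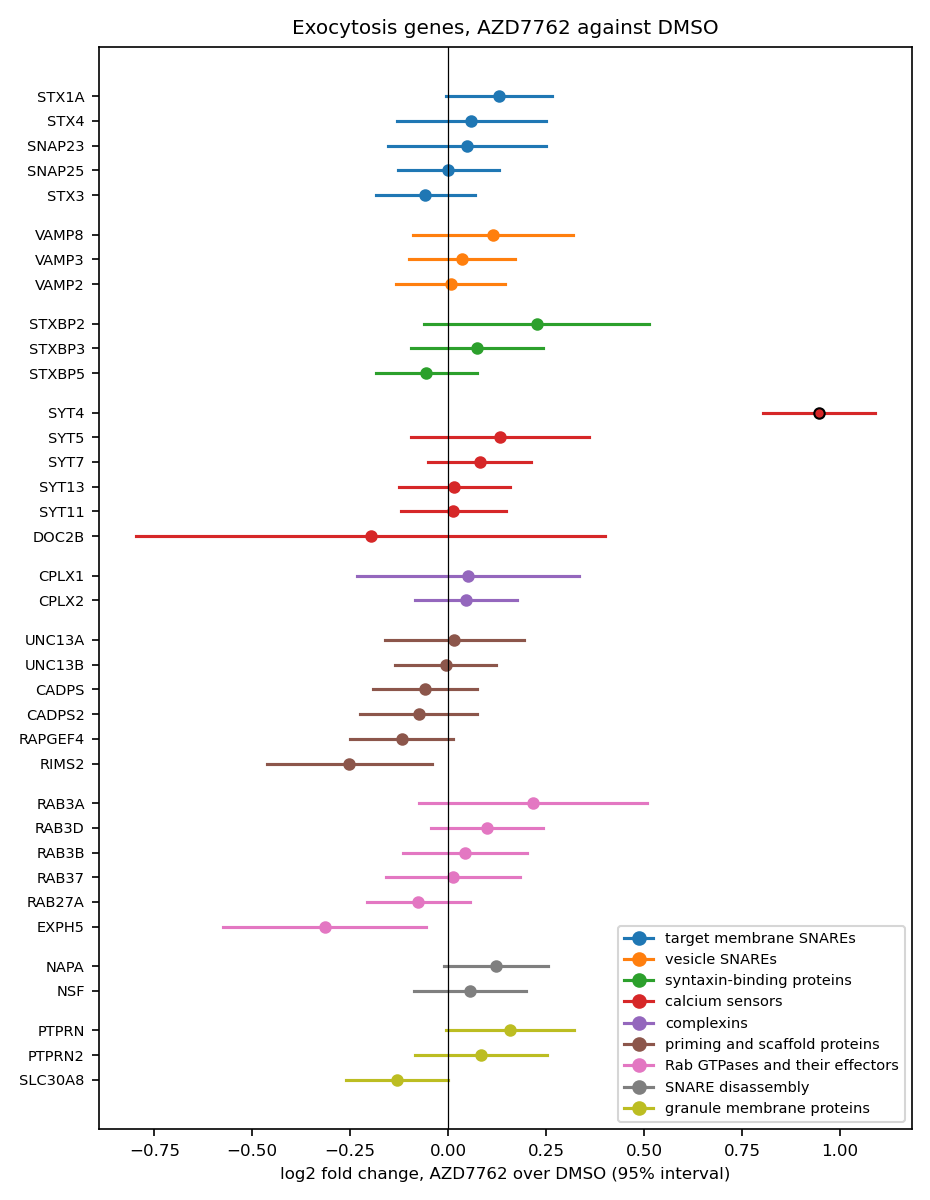
Fitted log2 fold change (AZD7762 over DMSO, x axis) of the 36 genes tested, in order of size within each role class, with bars for the 95% interval; the point with a black rim passed the threshold. SYT4 stands at 0.95, while the other 35 points lie between -0.32 and 0.23.

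The 3 samples of one group lay wholly above those of the other for 5 of the 36 genes, beside 15.0% of all genes. SYT4 and NAPA were higher in every AZD7762 sample, beside 6.79% of all genes separated in that direction. EXPH5, RAPGEF4 and SLC30A8 were lower in every AZD7762 sample, beside 8.25%. With trends over GC content and length taken out, the 5 became 4, EXPH5, RAPGEF4, STXBP3 and SYT4, beside 16.9% of all genes. NAPA and SLC30A8 then overlapped between the groups. With library totals alone the 5 became 7, beside 16.5%. The count also depended on the number of libraries, as did that over all genes. It was 10 without DMSO replicate 1, beside 25.3% of all genes tested in that setting, and 14 without DMSO replicate 3, beside 27.6%. It was 13 without AZD7762 replicate 2, beside 25.7%, and 8 without AZD7762 replicate 3, beside 30.4%. In bulk RNA, a lower value cannot be divided into fewer cells that express a gene and less RNA per cell.

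Among the SNAREs of the target membrane, STX1A, syntaxin 1A of the plasma membrane, had the highest level per length. It measured 152, 145 and 162 CPM with DMSO and 175, 160.1 and 168 CPM with AZD7762. The groups overlapped, and the log2 fold change was 0.13 (95% interval -0.01 to 0.27). Levels of different genes were compared as FPKM, CPM divided by the exon length in kilobases, with the length of all annotated exons merged. STX1A stood at 43.4 FPKM over the 6 samples and STX3, a syntaxin placed on granules as well as the cell surface, at 32.5 FPKM. STX4, the syntaxin of general plasma membrane traffic, stood at 3.33 FPKM, and SNAP23, the widely expressed relative of SNAP25, at 2.26 FPKM. In each pair of neighbours in this order the ranges over the 6 samples did not overlap. SNAP25, the partner of syntaxin 1A in the fusion complex, depended on the length chosen. It stood at 6.03 FPKM over its merged exons, which span 20369 bases, and at 59.8 FPKM over its canonical transcript, on which scale it lay above STX3 at 38.6 FPKM and below STX1A at 76.2 FPKM. Its log2 fold change was 0.00, with an interval from -0.13 to 0.13. The changes of STX3, STX4 and SNAP23 were -0.06, 0.06 and 0.05 on the log2 scale, and none of the 5 intervals left 0. Genes on the opposite strand overlap 27.6% of the exonic bases of SNAP23, and since no source says whether the counting used strand, its value is uncertain. The antisense gene SNAP25-AS1 held 3.32 to 5.06 CPM.

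The vesicle SNAREs VAMP2, VAMP3 and VAMP8 were present at like levels. VAMP2 is the SNARE that synaptotagmin-triggered granule fusion uses, VAMP3 is its relative on recycling vesicles, and VAMP8 is a SNARE of endosomes and of newly arriving granules. VAMP3 measured 126, 121 and 113 CPM with DMSO and 125, 128 and 117 CPM with AZD7762, with overlapping groups. Per length, VAMP3 stood at 44.5 FPKM, VAMP8 at 41.9 FPKM and VAMP2 at 35.0 FPKM, and the sample ranges of neighbours overlapped. The canonical transcript length put all 3 between 55.2 and 55.9 FPKM. The log2 fold changes were 0.01 for VAMP2, 0.03 for VAMP3 and 0.11 for VAMP8. The first turned negative with 2 other scaling methods, and the second with 1 of them. The widest of the 3 intervals, that of VAMP8, ran from -0.09 to 0.32.

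Of the proteins that bind syntaxins, STXBP5 (tomosyn-1, which occupies target SNAREs and holds back fusion) measured 171, 179.5 and 175 CPM with DMSO and 159, 172 and 175 CPM with AZD7762. These ranges overlapped, with a log2 fold change of -0.06 (-0.18 to 0.07). At 6.38 FPKM it stood above STXBP3 (Munc18c, the partner of STX4) at 3.13 FPKM and STXBP2 (Munc18-2) at 2.26 FPKM. Over canonical transcripts STXBP3 and STXBP2 stood at 7.41 and 7.28 FPKM, with overlapping ranges. STXBP2 had the largest positive estimate after SYT4, without passing the threshold. Its samples measured 12.3, 11.6 and 14.2 CPM with DMSO and 17.5, 11.8 and 14.9 CPM with AZD7762. Only AZD7762 replicates 1 and 3 exceeded the highest DMSO sample, and the log2 fold change of 0.23 had an interval from -0.06 to 0.51. Another gene on the same strand overlaps 30.4% of the exonic bases of STXBP2. STXBP3 changed by 0.07 on the log2 scale (-0.10 to 0.24).

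Among the calcium sensors, SYT13, a synaptotagmin that does not bind calcium and the most abundant of the class per length, measured 411, 374 and 364 CPM with DMSO and 392, 401 and 368 CPM with AZD7762. Its groups overlapped, and the log2 fold change was 0.02 (-0.13 to 0.16). SYT11, which like SYT4 lacks a calcium-holding residue, measured 302, 290.1 and 271 CPM with DMSO and 283, 303 and 285 CPM with AZD7762. Its log2 fold change was 0.01, and the upper end of the interval, 0.15, lay below the lower end of the SYT4 interval, 0.80. SYT7, a high-affinity calcium sensor of the β cell, changed by 0.08 on the log2 scale (-0.05 to 0.21). SYT5, a low-affinity sensor of dense-core granules, changed by 0.13 (-0.10 to 0.36). DOC2B, a soluble calcium sensor that binds SNAREs and Munc13, was close to the limit of the filter, with between 12 and 23 counts per library. Its samples measured 0.779, 0.662 and 0.575 CPM with DMSO and 0.557, 0.618 and 0.610 CPM with AZD7762. The groups overlapped, and the log2 fold change of -0.20 had the widest interval of the list, from -0.80 to 0.40.

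**Figure D2:**
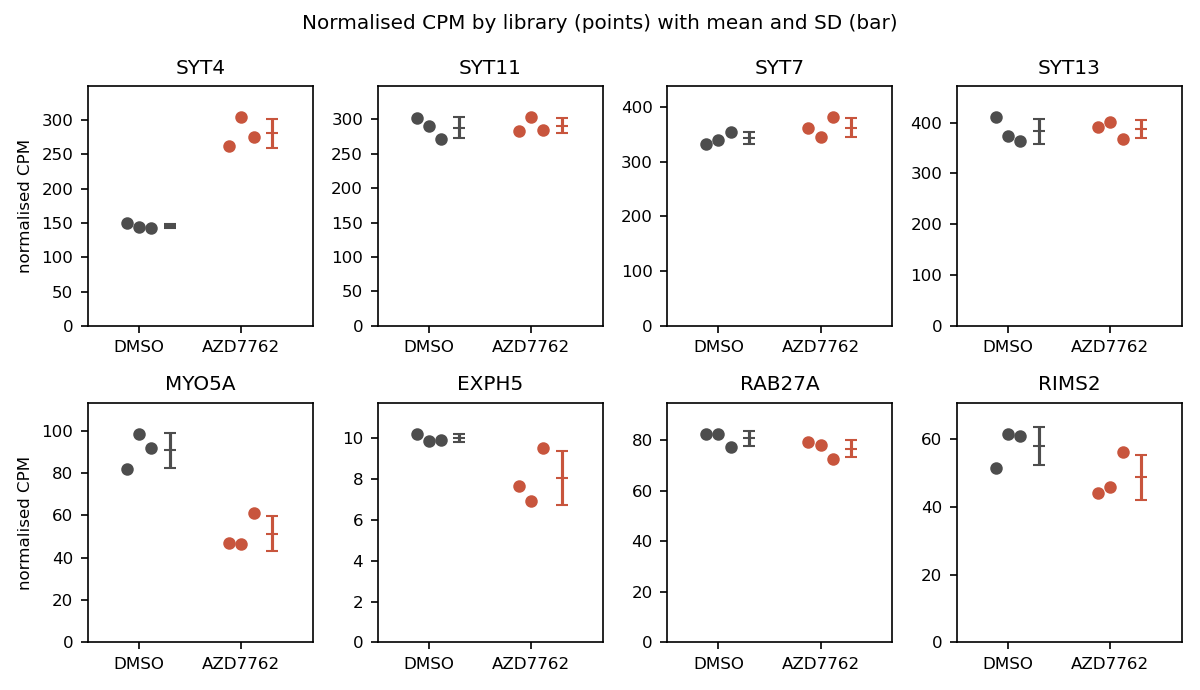
Normalised CPM of 8 genes in each library (points; y axes start at 0 and differ between panels), with the mean and SD of each group of 3 as a bar beside them. The SYT4 and MYO5A points of both groups are far apart, those of SYT11, SYT7, SYT13, RAB27A and RIMS2 overlap, and the EXPH5 points are separated by a narrow gap, from 9.52 to 9.86.

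The rise of SYT4 changed its place among the synaptotagmins. In the DMSO samples SYT13 stood at 70.3 ± 4.50 FPKM (SD, n = 3), SYT11 at 55.5 ± 2.97, SYT7 at 45.3 ± 1.49 and SYT4 at 33.8 ± 0.816. In the AZD7762 samples SYT13 stood at 71.1 ± 3.18 FPKM, SYT4 at 65.1 ± 4.99, SYT11 at 56.0 ± 2.10 and SYT7 at 48.0 ± 2.39. SYT4 thus stood below SYT7 by more than the spread in one group and above SYT11 in the other. Of the summed FPKM of the 5 synaptotagmins on the list, SYT4 held 16.2% ± 0.121 with DMSO and 26.7% ± 1.31 with AZD7762 (SD, n = 3 each). The sum itself was 208 ± 6.50 FPKM with DMSO and 244 ± 6.82 FPKM with AZD7762. With canonical transcript lengths the SYT4 share was 16.9% and 27.7%. SYT5 held between 1.30% and 1.89% of the sum in all 6 samples.

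**Figure D3:**
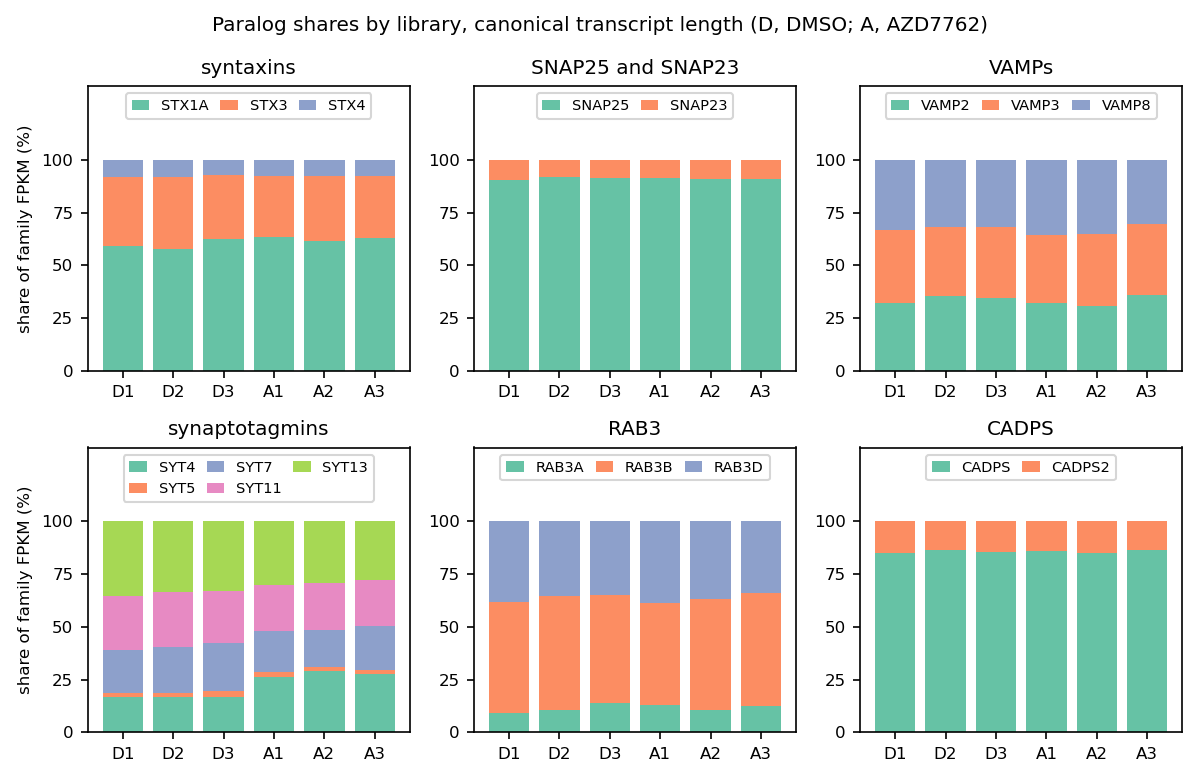
Share of each paralog in the summed FPKM of the listed genes of its family (y axis, percent, canonical transcript length). Stacked bars show each of the 3 DMSO (D) and 3 AZD7762 (A) libraries. Relatives outside the list, such as RAB3C, VAMP7, STX2 and SYT1, are not in the sums. The SYT4 segment is the one that grows, from 16.9% to 27.7% of the synaptotagmins on average. SNAP25 holds between 90.6% and 92.0% of its pair in all libraries, and between 71.0% and 74.7% over merged exons.

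Complexins clamp the partly zipped SNARE complex and help calcium release it. CPLX2 measured 100.4, 101 and 104 CPM with DMSO and 107, 98.1 and 109 CPM with AZD7762, with overlapping groups and a log2 fold change of 0.05 (-0.09 to 0.18). CPLX1 was the more variable of both, with a coefficient of variation of 22.3% among the DMSO samples against 1.75% for CPLX2. Its log2 fold change was 0.05 (-0.23 to 0.33). Per length they stood at 14.7 FPKM (CPLX2) and 13.9 FPKM (CPLX1), with overlapping ranges, and over the canonical transcript at 22.4 and 15.4 FPKM, without overlap.

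Among the priming and scaffold genes, UNC13A and UNC13B encode Munc13 proteins, which open syntaxin for SNARE assembly. UNC13A measured 224, 252 and 246 CPM with DMSO and 221, 234 and 275 CPM with AZD7762, so that the AZD7762 samples enclosed the DMSO range. They held nearly equal parts of their pair, with 21.6 FPKM for UNC13A and 20.3 FPKM for UNC13B, and changed by 0.02 and -0.01 on the log2 scale. CADPS and CADPS2 encode the CAPS proteins, which prime dense-core granules. CADPS held 71.2% ± 1.01 of the pair with DMSO and 71.4% ± 1.30 with AZD7762 (SD, n = 3 each), and 85.7% and 85.8% with canonical transcript lengths. On the canonical scale CADPS stood highest of this class, at 43.2 FPKM, and over merged exons it stood below both Munc13 genes, at 16.2 FPKM. The log2 fold changes were -0.06 for CADPS and -0.08 for CADPS2, and both intervals held 0.

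RIMS2, a RIM scaffold that links Rab3 to Munc13 and calcium channels, measured 51.6, 61.5 and 60.8 CPM with DMSO and 43.97, 45.8 and 56.2 CPM with AZD7762. AZD7762 replicate 3 lay above DMSO replicate 1, so the groups overlapped. The log2 fold change was -0.25 (-0.46 to -0.04) with an unadjusted p of 0.0229 and an adjusted p of 0.416 by edgeR's quasi-likelihood test, which does not pass the threshold. Its paralog RIMS1 was at the floor, with 1 count in DMSO replicate 2 and 0 counts in the other 5 libraries, so no fold change is given. A count of 3 corresponds to 0.102 to 0.146 CPM in these libraries, for counting error only, so a level of RIMS1 below that was not detectable at this depth. RIMS2 thus carried the RIM counts of this pair. RAPGEF4, the cAMP sensor Epac2 that binds RIM2, measured 60.4, 66.2 and 62.7 CPM with DMSO and 57.6, 59.1 and 57.5 CPM with AZD7762. Its groups did not overlap, and the log2 fold change was -0.12 (-0.25 to 0.01) with an adjusted p of 0.568 in the edgeR test.

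The Rab3 proteins and RAB27A sit on insulin granules and hold them at the membrane through effectors. RAB3B measured 348, 364 and 324 CPM with DMSO and 322, 363 and 382 CPM with AZD7762, with overlapping groups and a log2 fold change of 0.04 (-0.12 to 0.20). At 27.4 FPKM it stood above RAB3D at 18.6 FPKM and RAB3A at 5.15 FPKM, and no pair of these had overlapping ranges. Of the summed FPKM of RAB3A, RAB3B and RAB3D, RAB3B held 54.3% ± 1.34 with DMSO and 52.9% ± 2.87 with AZD7762 (SD, n = 3 each). This sum leaves out RAB3C, which is not on the list and stood at 17.4 FPKM. RAB3A had the next largest positive estimate, with samples at 7.18, 8.28 and 10.2 CPM in the DMSO group and at 10.4, 8.65 and 10.5 CPM in the AZD7762 group. The DMSO values differed among themselves by more than the group means did, and the log2 fold change of 0.22 had an interval from -0.08 to 0.51. RAB3D changed by 0.10 on the log2 scale (-0.04 to 0.24), and an opposite-strand gene overlaps 24.0% of its exonic bases. RAB27A stood at 6.93 FPKM over merged exons and 22.8 FPKM over its canonical transcript, and changed by -0.08 (-0.21 to 0.06). RAB37, a further Rab found on insulin granules, stood at 3.54 FPKM and changed by 0.01 (-0.16 to 0.18), with 21.6% of its exonic bases under an opposite-strand gene.

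Of the effectors of RAB27A, EXPH5, also called Slac2-b, measured 10.2, 9.86 and 9.92 CPM with DMSO and 7.67, 6.94 and 9.52 CPM with AZD7762. Every AZD7762 sample lay below every DMSO sample, by the least for AZD7762 replicate 3. This was the most negative estimate on the list, with a log2 fold change of -0.32 (-0.57 to -0.06), an unadjusted p of 0.0208 and an adjusted p of 0.405 by edgeR's quasi-likelihood test, short of the threshold. Per length EXPH5 stood at 0.824 FPKM. SYTL4 (granuphilin, the docking effector of RAB27A in islets) had 1 count in DMSO replicate 2, 2 counts in AZD7762 replicate 3 and 0 counts in the other libraries. It stayed under the floor of 3 counts in each library, and no fold change is given. An opposite-strand gene overlaps 39.0% of the exonic bases of SYTL4, so even these counts are uncertain.

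NSF measured 151, 140.1 and 132 CPM with DMSO and 148, 151 and 140.3 CPM with AZD7762, with overlapping groups and a log2 fold change of 0.06 (-0.09 to 0.20). NAPA, which encodes α-SNAP, measured 75.1, 75.3 and 68.9 CPM with DMSO and 82.4, 77.8 and 78.5 CPM with AZD7762. All 3 AZD7762 samples were higher, and the log2 fold change was 0.12 (-0.01 to 0.25) with an adjusted p of 0.563 in the edgeR test. Other genes overlap the exonic bases of NAPA on the same strand (13.2%) and on the opposite strand (17.4%). Over merged exons NSF stood at 15.2 FPKM and NAPA at 13.4 FPKM with overlapping ranges, and the canonical transcript put NAPA higher, at 45.9 against 36.1 FPKM. The NSF pseudogene NSFP1 held at most 0.234 CPM.

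The granule membrane proteins included the most abundant transcripts of the list. PTPRN (IA-2) and PTPRN2 (phogrin) encode receptor-type phosphatase relatives that span the granule membrane, and both proteins are autoantigens of type 1 diabetes. PTPRN2 measured 687, 649 and 790.0 CPM with DMSO and 771, 709 and 773 CPM with AZD7762, with overlapping groups and a log2 fold change of 0.08 (-0.08 to 0.25). It stood at 150.2 FPKM, at the 99.1 percentile of the genes tested, and PTPRN at 126 FPKM, at the 98.9 percentile. With canonical transcript lengths PTPRN stood above, at 288 FPKM. PTPRN changed by 0.16 (-0.01 to 0.32), with an adjusted p of 0.538 in the edgeR test. SLC30A8 encodes ZnT8, the transporter that loads granules with zinc. It measured 75.9, 69.1 and 71.1 CPM with DMSO and 65.0, 67.3 and 65.1 CPM with AZD7762. All 3 AZD7762 samples were lower, and the log2 fold change was -0.13 (-0.26 to 0.00) with an adjusted p of 0.518 in the edgeR test.

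**Figure D4:**
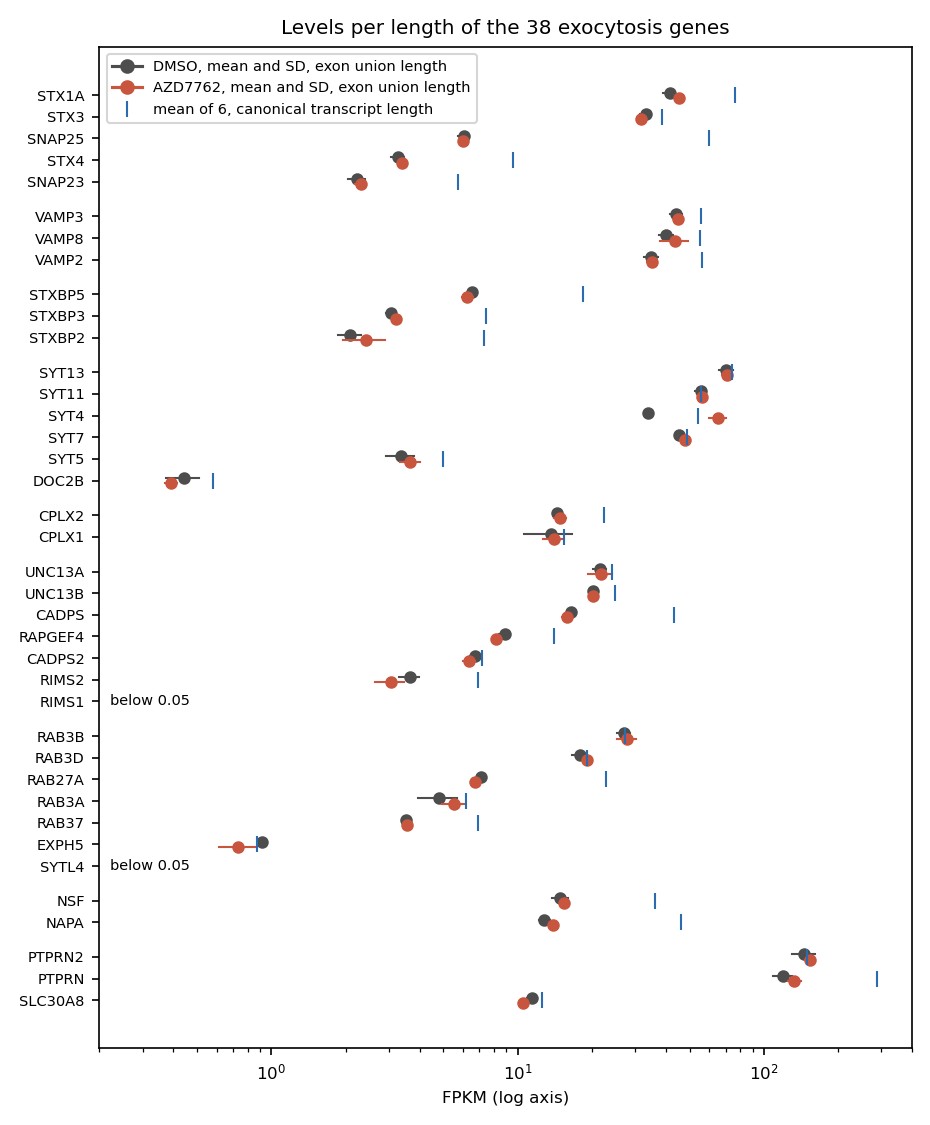
Level per length of the 38 genes (x axis, FPKM, log scale) with the mean and SD of each group of 3 over merged exons (dots and bars) and the mean of all 6 libraries over the canonical transcript (ticks). PTPRN2 and PTPRN stand highest, at 150.2 and 126 FPKM, and the largest distance between dot and tick is that of SNAP25, 6.03 against 59.8 FPKM.

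Together the 38 genes held between 0.586% and 0.626% of the counts of a library. The 6 libraries held 20486391 to 29402440 counts on genes, and replicates varied with a biological coefficient of variation of 7.15%. Their TMM factors lay between 1.006 and 1.02 with DMSO and between 0.983 and 0.993 with AZD7762, so the groups did not overlap in them. All 21 β cell markers looked up reached 1 CPM on average, among them INS, PDX1 and NKX6-1, with SLC2A2 low at 1.56 CPM. Their summed level was 10132 to 11278 CPM with DMSO and 11066 to 11472 CPM with AZD7762. Of these 21 markers 1 passed the threshold, MAFA, a transcription factor of insulin gene expression, which rose from 17.3 ± 3.41 to 40.4 ± 4.25 CPM (SD, n = 3 each). Of 8 markers of other islet endocrine cells 6 reached 1 CPM, with TTR at 1953 CPM, SST at 234 CPM and GCG at 1.47 CPM. The 8 summed to 2013 to 2333 CPM with DMSO and 2222 to 2484 CPM with AZD7762. Most of this sum was TTR, with means of 1863 CPM (DMSO) and 2043 CPM (AZD7762). Of 21 matched markers of exocrine, duct, stromal, endothelial, immune and glial cells only CPA1, KRT19, COL1A1 and COL1A2 reached 1 CPM, and PRSS1, CELA3A, CTRB1, CDH5 and CD3E were at 0 counts. The last list summed to 61.1 to 72.9 CPM with DMSO and 68.0 to 76.3 CPM with AZD7762. A part of these cells in the SYT4 change was not tested.

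A wider list of 119 genes of secretory membrane traffic was put in the same fit, and 105 of them passed the filter. None rose past the threshold and 1 of the 105 fell, beside 0.708% of all genes past it in either direction. The 1 gene was MYO5A, which encodes myosin Va, the actin motor that carries granules and other organelles below the plasma membrane. It measured 81.9, 98.5 and 91.7 CPM with DMSO and 46.8, 46.4 and 61.1 CPM with AZD7762. All AZD7762 samples lay below all DMSO samples, and the fitted level was 0.567 of the DMSO level (95% interval 0.485 to 0.661). The log2 fold change was -0.82 ± 0.10 (SE) with an adjusted p of 0.00128 in edgeR's quasi-likelihood test. MYO5A lies on the minus strand at chr15:52599478-52821329 (GRCh37) and shares no exonic bases with other genes. Of the adaptors that join myosin Va to RAB27A on vesicles, MLPH and MYRIP did not pass the filter, with means of 0.0158 and 0.307 CPM.

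The median log2 fold change of the 105 genes was 0.01, equal at this rounding to that of all genes tested. An unadjusted p under 0.05 was found for 9 of them, 5 above 0 and 4 below, including MYO5A, a share close to the 9.68% of all genes. Of the wider list, the next smallest p-values after MYO5A belonged to STX5, SCAMP3, SYT15 and VMP1, none past the threshold. STX5, a Golgi syntaxin, measured 43.1, 39.9 and 38.7 CPM with DMSO and 47.3, 51.1 and 49.0 CPM with AZD7762, with a log2 fold change of 0.27 and an adjusted p of 0.124 in the edgeR test. SCAMP3, a carrier protein of endosomes and the Golgi, had a log2 fold change of 0.25 and an adjusted p of 0.151 in the edgeR test. VMP1, an endoplasmic reticulum protein of autophagy, had a log2 fold change of 0.24 and an adjusted p of 0.273 in the edgeR test. SYT15 lay at 0.234 to 0.767 CPM with a log2 fold change of -1.22 and an adjusted p of 0.166 in the edgeR test, and 99.7% of its exonic bases overlap another gene on the same strand, so that its counts are uncertain. The 9 exocyst subunits, which tether vesicles, changed by between -0.17 and 0.04 on the log2 scale with none past the threshold.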

How the data were processed

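RNA-seq had been performed on 6 samples of EndoC-βH1 cells, grouped by treatment as their labels give it. The authors removed adaptors and bases of low quality (the submitters' processing notes name cutadapt 1.18 and FastQC 0.10.1), mapped the reads to GRCh37 and used HTSeq-count per gene. The deposited values are the resulting raw counts, without scaling. The aligner, the annotation release and the strand setting are not given in the sources used here. Libraries had been made with 1 of 2 kits, of which 1 keeps the strand, without a statement of the kit per sample.

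Counts were tested in R 4.3.3 with edgeR 4.0.16. Genes were filtered with filterByExpr and scaled with TMM factors, and the quasi-likelihood test, with no term besides treatment, was fitted on all 17649 genes passing, with Benjamini-Hochberg adjustment and a threshold of 0.05, two-sided. Standard errors are the absolute log2 fold change over the root of the F statistic, and 95% intervals use the t quantile at the total degrees of freedom of the fit. Libraries held 20486391 to 29402440 counts, so that 3 counts, the floor, correspond to at most 0.146 CPM. Positions and lengths came from a GRCh37 annotation of another release, which holds 96.7% of the identifiers. FPKM use merged exons, with the longest or the canonical transcript as alternatives.

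The genes and lists were chosen with earlier results of these data known. Values in every sample are given for the most abundant gene of each role class, those with an unadjusted p under 0.05, those at or under the floor, and the 3 largest positive and 3 most negative changes. From the wider list, called genes and the 5 smallest p are named. Other genes given by sample were chosen after their values were seen. Alternatives were other scaling factors, filters and tests (DESeq2 1.42.0, limma-voom 3.58.1), a replicate block, trends over GC content and length, and leaving out each sample. The canonical transcript was added after the lengths had been seen. Procedures were tested on simulated counts.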

Additional observations from a re-analysis of the deposited data

How the results depend on the processing

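SYT4 stayed past the threshold in each alternative run, with a log2 fold change between 0.88 and 0.99 and an adjusted p of at most 9.53e-05, as did MYO5A, between -0.96 and -0.76 and with at most 0.0349. EXPH5 stayed short of it, between -0.45 and -0.23 with an adjusted p of at least 0.143. RIMS2 lay between -0.37 and -0.19. The replicate numbers were tested for pairing by the correlation of deviations from the group means, which was 0.05, 0.12 and 0.21 for the 3 numbers. Not every sample correlated best with its own number, and the main fit was left without a replicate term. With 3 samples per group this check cannot exclude that the samples were paired. The replicate block, alone or with offsets for GC content and length, gave 2 called genes of the machinery, SYT4 and RIMS2 (adjusted p 0.0486 for RIMS2 with the block alone), and 4 of the wider list, MYO5A, SCAMP3, STX5 and VMP1. The wider list had 2 called genes, MYO5A and STX5, in edgeR's likelihood ratio test and in its exact test. Over all genes, 125 became 330 with no filter on low counts, 267 in the likelihood ratio test, 254 in the exact test, 378 with the replicate block, 232 with offsets for GC content and length and 487 with both. The cause was not tested. Leaving out 1 library gave 77 to 168 called genes, the lowest without AZD7762 replicate 1, and 7 to 14 of 36 genes of the machinery without overlap between the groups, beside 21.8% to 30.4% of all genes in these settings.

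Of 737 recomputed log2 fold changes of the 41 genes named by the rule, 53 changed sign, all of 13 genes whose estimate was at most 0.06 from 0. With upper-quartile factors they were RAB37 (-0.0052), SYT11 (-0.0036), SYT13 (-0.0013), UNC13A (-0.0010) and VAMP2 (-0.011). With library totals only they were RAB37 (-0.023), SYT11 (-0.022), SYT13 (-0.020), UNC13A (-0.019), VAMP2 (-0.029) and VAMP3 (-0.00045). With the GC and length offsets they were CPLX1 (-0.048), CPLX2 (-0.0067), RAB37 (-0.041), SNAP25 (0.048), STX4 (-0.0081), STXBP5 (0.0036), UNC13A (-0.015), UNC13B (0.016) and VAMP2 (-0.044). The replicate block with these offsets gave CPLX1 (-0.049), CPLX2 (-0.0057), RAB37 (-0.039), SNAP25 (0.048), STX4 (-0.0029), STXBP5 (0.0038), UNC13A (-0.017), UNC13B (0.016) and VAMP2 (-0.041). SNAP25 was 0.00065 with limma-voom and 0.00074 with the block alone. Leaving out 1 library gave ranges of SNAP25 -0.027 to 0.038, VAMP2 -0.026 to 0.053, VAMP3 -0.0039 to 0.070, SYT11 -0.025 to 0.045, SYT13 -0.017 to 0.065, CPLX1 -0.091 to 0.23, UNC13A -0.079 to 0.073, UNC13B -0.033 to 0.018, RAB3B -0.011 to 0.10 and RAB37 -0.018 to 0.035.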

Other observations

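Genes of the wider list, chosen here after their values were seen, ranged widely in level per length. Over merged exons, ESYT1, an extended synaptotagmin that ties the endoplasmic reticulum to the plasma membrane, stood at 73.4 FPKM over the 6 samples, RAB11A, the Rab of recycling endosomes, at 70.0 FPKM and SYP, the vesicle protein synaptophysin, at 69.2 FPKM. Over canonical transcripts SYP stood first, at 199 FPKM, with ESYT1 at 92.8 FPKM and RAB11A at 81.2 FPKM. SYT1, the main fast calcium sensor of synapses, stood at 7.81 FPKM over merged exons and 15.7 FPKM over its canonical transcript, and SYT9 at 4.10 and 4.89 FPKM. RAB3C, the Rab3 isoform outside the 38 genes, stood at 17.4 and 18.9 FPKM. RIMS3, a short RIM protein, stood at 17.2 FPKM on both scales, while RIMS1 was at the floor.

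Among effectors of Rab27 outside the 38 genes, RPH3AL (Noc2), which also binds Rab3, stood at 7.24 FPKM over merged exons and 16.2 FPKM over its canonical transcript, and SYTL1 at 4.58 and 13.2 FPKM. SYTL3 stood at 1.05 FPKM over merged exons, SYTL5 at 0.924 FPKM and SYTL2 at 0.238 FPKM, with SYTL4 under the floor. RAB27B, the paralog of RAB27A, stood at 1.33 FPKM over merged exons against 6.93 FPKM for RAB27A, and at 1.35 against 22.8 FPKM over canonical transcripts.

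None of these genes passed the threshold in edgeR's quasi-likelihood test of AZD7762 against DMSO. The log2 fold changes were 0.05 for ESYT1, 0.01 for RAB11A, 0.08 for SYP, -0.10 for SYT1, 0.06 for SYT9, 0.01 for RAB3C, 0.01 for RIMS3, 0.11 for RPH3AL and -0.05 for RAB27B. They were 0.04 for SYTL1, with an interval from -0.40 to 0.48, and -0.08 for SYTL3. SYTL2 had a log2 fold change of -0.31 (95% interval -0.83 to 0.21) and SYTL5 one of 0.30 (-0.04 to 0.63).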
